A study of Mus musculus with 26 samples.

Results

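Single amacrine cells labelled P8 were compared with single amacrine cells labelled P5, all from mouse retinas kept in culture, on 13 arrays of a series of 26 that set out to find markers of amacrine cell classes. Each array held the amplified RNA of 1 cell. The P8 cells were 2 pNdrg4 cells (A1 and A2) and 2 pSynapsin cells (B3 and B4), from retinas cultured for 8 days. The P5 cells were 5 pNdrg4 cells (C1, C6, D3, D5 and D6) and 4 pSynapsin cells (E1, E2, E3 and E4), from retinas cultured for 5 days. In both ages a GFP reporter under the Ndrg4 or the Synapsin promoter (pNdrg4::GFP or pSynapsin::GFP) had been electroporated at P0, in vivo or ex vivo, and a cell was picked by hand for its GFP signal after papain treatment. The other 13 cells of the series, 10 P5 pNdrg4 cells with no culture stated, 2 P4 pNdrg4 cells and 1 E19 pSynapsin cell, were used only as a side measurement. Age and days in culture ran together in these groups, so the effects of both cannot be told apart. The labels name no animal and no culture dish, so each group counted as 1 sample, no p-value was computed, and an SD given here is the spread over cells.

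In the inner retina, amacrine cells act as inhibitory neurons, releasing GABA or glycine onto bipolar, ganglion and other amacrine cells. In the mouse, ribbon and conventional synapses of the inner retina form during the postnatal weeks before the eyes open, while processes stratify and receptors and channels of the mature circuit appear. The AII amacrine cell, a glycinergic type coupled by gap junctions, carries rod signals into the cone pathway.

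The deposited values were MAS5 signals, linear intensities scaled by the authors to the same trimmed mean of 500 on every array. Detection was set at a signal of 1000 or more, and a gene was compared when 2 or more of the 13 cells detected it, which held for 7356 of 18193 genes. A difference is P8 minus P5 in mean log2 signal, with signals raised to a floor of 200 (7.64 on the log2 scale), taken within each reporter and then averaged over both. Where cells at the floor are all in the lower group the difference is a lower bound of the gap in signal, and where the higher group holds such cells too it is no bound. Where a difference or a list's median is also given without 1 cell, that cell moved it furthest towards or past 0. The P8 cells had 3382 (A1), 4180 (A2), 3998 (B3) and 3467 (B4) genes detected, against a lowest of 3049, a median of 3462 and a highest of 3925 in the 9 P5 cells, so the ranges overlapped. The log2 ratio of 3' to 5' Actb signal, a sign of RNA and amplification quality, was 0.85 to 3.12 in P8 cells and 0.81 to 3.32 in P5 cells. Spearman correlations across genes between a P8 and a P5 cell lay between 0.29 and 0.40 for pNdrg4 and between 0.30 and 0.41 for pSynapsin, against 0.30 to 0.41 between P5 cells of the same reporter. Precision is limited by how few arrays there were.

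The amacrine label was checked first. Pax6, a homeodomain protein of amacrine cells and their precursors, passed the detection level in 4 of 4 P8 cells (9755 to 17852) and in 9 of 9 P5 cells (11931 to 24744). Slc32a1, which loads GABA and glycine into vesicles, was likewise detected in all 13 cells, with signals of 1036 to 7013 at P8 and 2997 to 12917 at P5. Slc6a9, the glycine transporter of glycinergic amacrine cells, was detected in 4 of 4 P8 cells and in 7 of 9 P5 cells, C6 (109) and D6 (990) being below the detection level. C6 was also the 1 cell with Gad1, a GABA-synthesising enzyme, at 16150, and 0 of 4 P8 cells detected it. Gad2, a second such enzyme, was detected in 7 of the 13 cells, with an averaged difference of -0.30. Both pNdrg4 groups held cells with Xist, the transcript of the inactive X chromosome (2 of 2 at P8, 5 of 5 at P5), whereas it was detected in 0 of 2 P8 and 1 of 4 P5 pSynapsin cells. Ndrg4 itself was detected in 0 of the 13 cells.

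The glutamate transporter gene Slc1a1 and the catalase gene Cat were among the genes with the widest higher signals at P8 in both reporters, and the complex I gene Ndufa10 and the PHD finger gene Phf3 among those with the widest lower signals. A difference of at least 1, that is a 2-fold higher geometric mean, in both reporters was found for 623 genes higher at P8 (8.47% of those compared) and one of -1 or below for 372 genes lower at P8 (5.06%). These counts are a description and hold no test, and 449 genes passed the same size upwards in pNdrg4 and downwards in pSynapsin cells, with 402 the other way round. The lower count was 571 without cell A2 and 556 without cell B3. The median difference of all genes compared was 0.11.

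**Figure D1:**
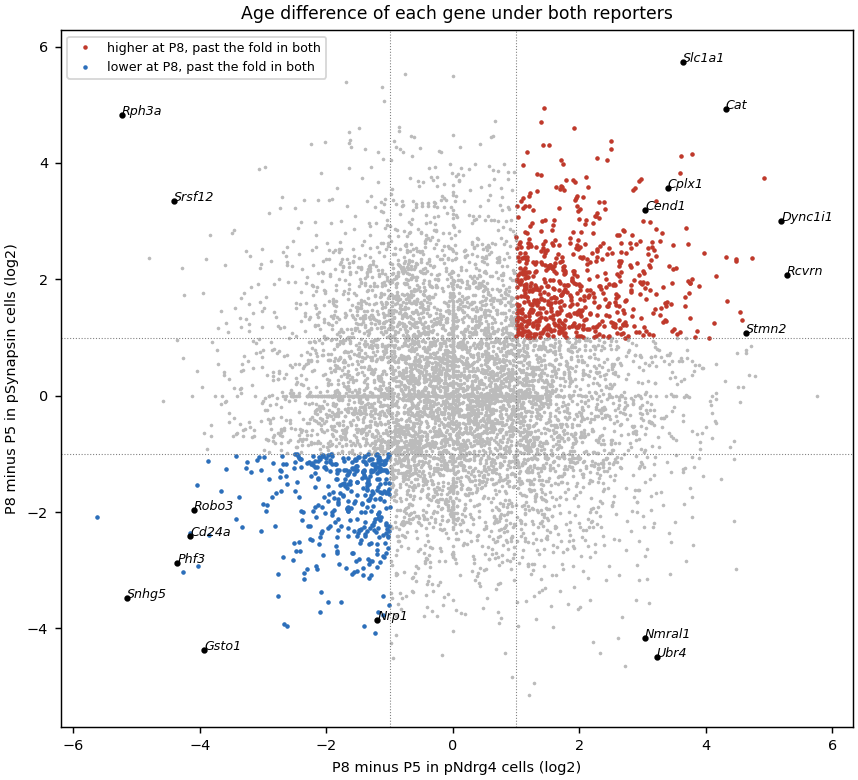
Each point is 1 of the 7356 genes compared, with its P8 minus P5 difference (log2) in pNdrg4 cells on the x axis and in pSynapsin cells on the y axis, with red and blue points past the dotted lines at 1 and -1 in both. Slc1a1 and Cat lie high in both reporters, Snhg5, Phf3 and Gsto1 low in both, and Rph3a and Srsf12 lie where the reporters go opposite ways.

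The strictest view asked whether all 4 P8 cells lay beyond all 9 P5 cells. This held for 9 genes higher at P8 (0.122% of those compared) and for 7 genes lower at P8 (0.0952%). What share a split of the cells made without regard to age would give was not computed, so these small counts hold no test. The higher ones were Slc1a1, Cat, Rcor3, Map3k9, Cend1, Prkag2, Acvr2b, Rap1gds1 and Jmjd1c, and the lower ones were Phf3, Ndufa10, Rprd1a, Hnrnph3, Inpp5e, Ppa1 and Rps26. Which genes did so depended on the processing. Of these 9 and 7 genes, 6 and 3 stayed without overlap with scaling to the 75th percentile, and 8 and 5 with quantile normalization. With the highest probe set per cell 7 and 4 stayed so, and with the median over probe sets 1 and 4.

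Slc1a1 encodes the neuronal glutamate and cysteine transporter EAAC1. Its signal was 8070 (A1) and 8156 (A2) in P8 pNdrg4 cells and 10892 (B3) and 10441 (B4) in P8 pSynapsin cells. In P5 cells it was 5769 in D3 and 2558 in D5, and between 10.1 and 134 in the other 7, all below the floor. The 4 P8 cells were thus close to each other and above every P5 cell, and in P5 pSynapsin cells the gene was detected in 0 of 4. The log2 means were 13.18 ± 0.23 (SD, n = 4 cells) at P8 and 8.59 ± 1.90 (SD, n = 9 cells) at P5, and the difference was 3.64 in pNdrg4, 5.74 in pSynapsin and 4.69 averaged. The other 2 probe sets for this gene were detected in 0 of 13 cells, so the result rests on 1 probe set and is 0 with the median over probe sets. In the 10 P5 cells with no culture stated it was detected in 4, with a highest signal of 15252.

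Cat encodes catalase, the peroxisomal enzyme that breaks down hydrogen peroxide. Its signal was 9121 (A1), 7282 (A2), 6190 (B3) and 11972 (B4) at P8. Among P5 cells D6 reached 5797, E3 had 804, D3 had 249, and the other 6 lay between 0.9 and 21.8. All 4 P8 cells thus detected it, against 1 of 9 P5 cells. The difference was 4.31 in pNdrg4 and 4.93 in pSynapsin cells, and a second probe set gave 3.99 and 4.54. Of the 10 P5 cells with no culture stated 5 detected it, up to 32567, so a high signal was not confined to P8 cells in the whole series.

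Cend1, a membrane protein that drives cell cycle exit in neuronal precursors, had signals of 7093, 5332, 5701 and 4814 in A1, A2, B3 and B4. The P5 cells had a lowest of 85.2, a median of 841 and a highest of 3530 (D5). All 4 of its probe sets were higher at P8, with averaged differences of 2.83, 2.88, 3.12 and 3.30. Prkag2, a regulatory subunit of the energy sensor AMPK, had 1408, 3571, 2315 and 1325 in the same P8 cells, and at most 910 (E2) in P5 cells. It was the 1 gene detected in 4 of 4 P8 and 0 of 9 P5 cells. Map3k9, a mixed-lineage kinase upstream of JNK, had 1681, 1282, 2308 and 5729 at P8, against 1079 in E3 and at most 197 in the other 8 P5 cells. These genes separated the P8 from the cultured P5 cells without overlap, at moderate signals.

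The other 4 genes of this kind act in chromatin and signalling. Jmjd1c, a relative of histone demethylases, was detected in 4 of 4 P8 and 5 of 9 P5 cells, with a difference of 2.35. Rcor3, a corepressor of the CoREST family, had 664 to 6165 at P8 and at most 216 at P5 (difference 3.38). Acvr2b, an activin receptor, had 718 to 2743 at P8 and at most 76.7 at P5 (2.75), and Rap1gds1, an exchange factor for small GTPases, had 905 to 1971 against at most 563 (2.36). With the median over probe sets Rcor3, Acvr2b and Map3k9 went to 0 and Jmjd1c to -0.29.

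On the lower side Ndufa10, a subunit of respiratory complex I, had 86.2 and 10.8 in P8 cells A1 and A2 and 606 and 1222 in B3 and B4. In P5 cells the lowest was 1597 (D3), the median 4541 and the highest 11547 (E1), and 9 of 9 detected it. The log2 means were 8.70 ± 1.28 (SD, n = 4 cells) at P8 and 12.12 ± 1.02 (SD, n = 9 cells) at P5, a difference of -4.03 in pNdrg4 and -2.93 in pSynapsin cells. Phf3, a PHD finger protein that binds the tail of RNA polymerase II, was between 13.4 and 28.1 in all 4 P8 cells. At P5 it had a lowest signal of 345, a median of 3516 and a highest of 9300, and 7 of 9 cells detected it. It was, however, detected in 0 of the 10 P5 cells with no culture stated, where the highest signal was 162, and its difference is 0 with the median over probe sets.

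Rprd1a, which also binds that polymerase tail, was at 31.5 to 83.9 in P8 cells and at 241 to 8943 in P5 cells, a difference of -3.29. Hnrnph3, a splicing factor, lay at 150, 330, 419 and 481 in A1, A2, B3 and B4. The P5 cells ran from 858 to 5740 with a median of 2606, a difference of -2.77 that lay between -2.98 and -2.21 under the 22 alternatives that recompute it. Inpp5e, a phosphatase of the primary cilium, had a difference of -1.64, and Ppa1, the cytosolic pyrophosphatase, one of -1.62 (-0.80 without B4). Rps26, a protein of the small ribosomal subunit, had high signals in all cells, 7490, 6806, 10815 and 9019 at P8, against a lowest of 11074 (E2), a median of 14102 and a highest of 20815 (D5) at P5. Its difference was small, at -0.70, and the SD within groups was 0.26.

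The promoters of 2 genes on each side are shown, as their signals did not overlap between P8 and cultured P5 cells. Slc1a1 and Cat were also detected in some P5 cells with no culture stated, as given above. They span 250 bases before to 50 after the RefSeq gene start (build GRCm38.p6), are read 5′ to 3′ on the gene's strand, and capitals mark matches on either strand to the CRE (TGACGTCA), the CCAAT box (CCAAT) and the GC box (GGGCGG). Slc1a1 lies at chr19:28834885-28835184 (plus strand), Cat at chr2:103485104-103485403 (minus), Ndufa10 at chr1:92473709-92474008 (minus) and Hnrnph3 at chr10:63023800-63024099 (minus).
Slc1a1: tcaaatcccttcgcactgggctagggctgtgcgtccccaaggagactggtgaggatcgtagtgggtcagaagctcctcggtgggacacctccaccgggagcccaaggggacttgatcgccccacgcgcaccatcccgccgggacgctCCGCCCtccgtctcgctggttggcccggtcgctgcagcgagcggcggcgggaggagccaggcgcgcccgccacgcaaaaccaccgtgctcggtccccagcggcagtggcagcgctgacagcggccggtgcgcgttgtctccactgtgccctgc
Cat: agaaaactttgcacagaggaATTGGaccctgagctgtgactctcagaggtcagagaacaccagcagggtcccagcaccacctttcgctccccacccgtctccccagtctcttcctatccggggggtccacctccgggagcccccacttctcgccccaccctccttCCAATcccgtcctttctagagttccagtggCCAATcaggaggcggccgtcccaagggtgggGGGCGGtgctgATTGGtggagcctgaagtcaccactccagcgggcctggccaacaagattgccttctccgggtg
Ndufa10: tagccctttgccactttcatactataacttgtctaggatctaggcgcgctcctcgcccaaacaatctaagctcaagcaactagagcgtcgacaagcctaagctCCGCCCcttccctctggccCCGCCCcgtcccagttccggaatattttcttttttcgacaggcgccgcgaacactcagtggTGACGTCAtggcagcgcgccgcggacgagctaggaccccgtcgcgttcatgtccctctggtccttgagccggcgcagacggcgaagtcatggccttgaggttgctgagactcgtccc
Hnrnph3: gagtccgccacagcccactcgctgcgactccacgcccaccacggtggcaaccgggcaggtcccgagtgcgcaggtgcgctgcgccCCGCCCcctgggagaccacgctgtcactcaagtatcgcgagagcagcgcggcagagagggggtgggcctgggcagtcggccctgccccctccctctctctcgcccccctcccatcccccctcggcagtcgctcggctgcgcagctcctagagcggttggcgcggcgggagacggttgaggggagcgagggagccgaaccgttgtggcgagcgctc
Cat held 4 CCAAT matches and 1 GC box, Ndufa10 held 1 CRE and 2 GC boxes, and Slc1a1 and Hnrnph3 held 1 GC box each. Of all 27025 RefSeq mouse promoters of this length 1.88% hold a CRE, 37.92% a CCAAT match and 35.91% a GC box. GC content was 70.3% for Slc1a1, 62.0% for Cat, 59.0% for Ndufa10 and 73.0% for Hnrnph3, with a median of 52.7% over all promoters. These matches are letters in a window and were not tied to the signals.

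Genes were then ranked by the smaller of the differences in both reporters. The 20 highest were detected in 20, 18, 18 and 20 of 20 cases in P8 cells A1, A2, B3 and B4, and in 2 to 8 in P5 cells, E2 having the most. The 20 lowest were detected in 3, 5, 2 and 6 cases in the same P8 cells and in 14 to 19 in P5 cells. These genes were chosen for this pattern, so the counts describe the choice. Outside the choice, the higher genes were detected in 23.5% of gene and cell pairs in the 10 P5 cells with no culture stated, close to the 21.67% of the cultured P5 cells. The lower genes were detected in 45.5% there, beside 20.0% in P8 and 85.0% in cultured P5 cells. Those 10 cells detected 1909 to 3513 genes in all, against 3049 to 3925 in the cultured P5 cells. The part of this in both shares was not tested, and their share over all compared genes is not given here. In the P4 and E19 cells the shares were 26.67% for the higher and 53.33% for the lower genes. The P8 and cultured P5 shares were set by the choice of genes, so a place between them holds no test.

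**Figure D2:**
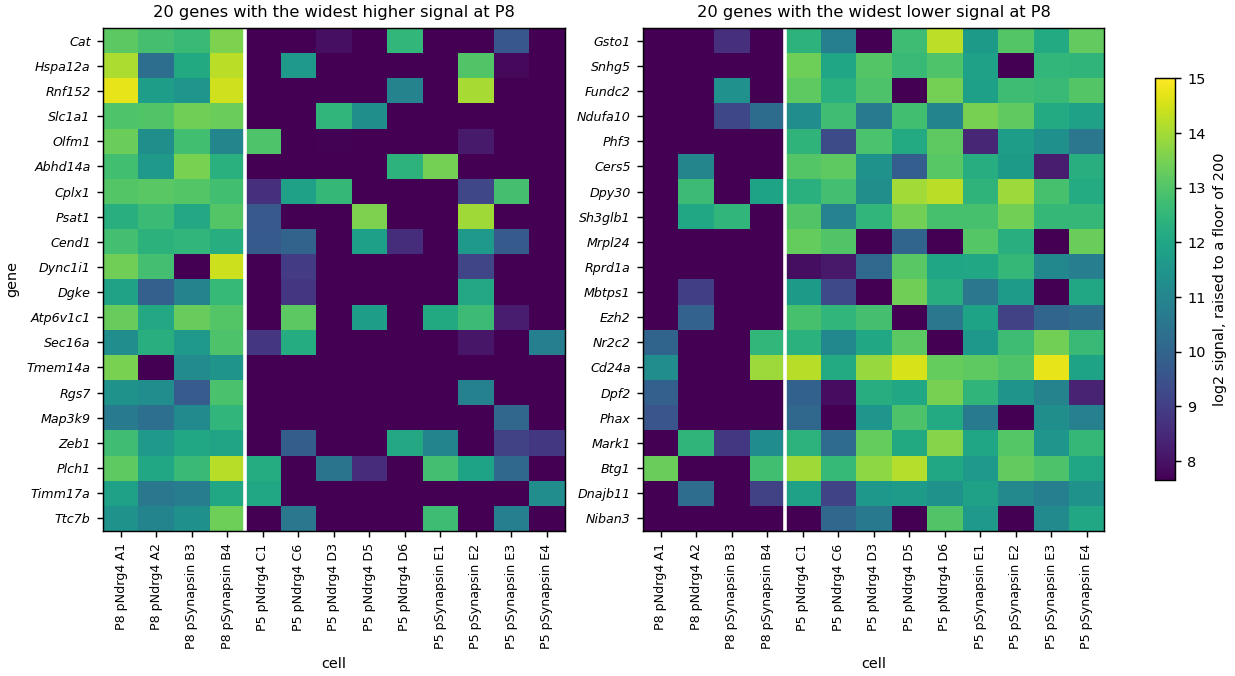
Log2 signals, raised to the floor of 200, of the 20 genes with the widest higher (left) and the 20 with the widest lower (right) signal at P8, with 4 P8 cells left of the white line and 9 P5 cells right of it. Cells A1 and B4 have the brightest Rnf152 and Hspa12a, P5 cell E2 shares several of these genes with them, and Cd24a and Btg1 are darkest in P8 cells A2 and B3.

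Beyond those named above, the 20 higher genes had several known roles. Cplx1, the SNARE regulator complexin, stood at 8365, 8804, 8307 and 6957 in A1, A2, B3 and B4. In P5 cells it ran from 9.2 to 7220 with a median of 405, and E3 (7220) was above P8 cell B4, so the ages overlapped. Its difference was 3.48, and 2 further probe sets gave 3.65 and 1.45. Rgs7, which speeds the turn-off of G proteins, was at 873 to 7593 in P8 cells and detected in 1 of 9 P5 cells, E2 at 1891. Olfm1, a secreted olfactomedin glycoprotein of neurons, had 2071 to 10426 at P8 and was detected in 1 P5 cell, C1 at 8074.

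Genes of transport and membrane lipid turnover were also among them. Dync1i1, a neuronal intermediate chain of cytoplasmic dynein, had 10754 (A1), 7099 (A2), 61.4 (B3) and 22033 (B4) at P8 and was detected in 0 of 9 P5 cells. Atp6v1c1, a subunit of the proton pump of vesicles and lysosomes, had 4316 to 9992 at P8 and was detected in 4 of 9 P5 cells. Sec16a, which marks exit sites of the endoplasmic reticulum, had a difference of 3.35, and Rnf152, a lysosomal ubiquitin ligase, one of 4.33. The phospholipase C gene Plch1 differed by 3.04, and Ttc7b, of a phosphatidylinositol kinase complex, by 2.80. The diacylglycerol kinase gene Dgke was detected in 3 of 4 P8 and 1 of 9 P5 cells. Rnf152 was far above its other P8 values in A1 (26913) and B4 (22694), and E2 had 16936. The difference of Dync1i1 was 2.40 without B4.

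The rest were Hspa12a (3.96), an unusual member of the Hsp70 family, Abhd14a (3.71), a hydrolase-fold protein, and Psat1 (3.28), an enzyme of serine synthesis. Tmem14a (3.31, and 1.84 without A1), a membrane protein of mitochondria, Zeb1 (3.04), a zinc-finger repressor, and Timm17a (2.77), of the mitochondrial import channel, completed them. The 20th gene, Ttc7b, had 2.65 in its smaller reporter difference, the same at 2 decimals as the next gene below it. Of 15 further detected probe sets of these genes, 13 were higher in both reporters. With the median over probe sets Zeb1 turned to -0.35, while Hspa12a went to 0.15 and Dgke to 0.22.

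Among the 20 lower genes, several act on chromatin or on transcription. Ezh2, the methyltransferase of the Polycomb complex PRC2, was at 41.6, 995, 20.0 and 49.8 in A1, A2, B3 and B4, so 0 of 4 detected it. In P5 cells it ran from 61.7 to 7390 with a median of 1551, and 7 of 9 detected it. Dpy30, a subunit of histone H3K4 methyltransferases, had a difference of -2.92, but A2 (6632) and B4 (3820) lay within the P5 range. Dpf2, of the BAF remodelling complex, had a difference of -2.76 and Nr2c2, an orphan nuclear receptor, one of -2.47. Leaving out 1 cell brought Dpy30 to -1.65 (without A1) and Nr2c2 to -1.26 (without B3).

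Cd24a, a glycosylated surface protein of young neurons, had 2447 (A1), 14.4 (A2), 18.7 (B3) and 15441 (B4). The P5 cells ran from 3816 to 26892 with a median of 9747, and 9 of 9 detected it. P8 cell B4 was inside that range and the other 3 were below it. Its 3 probe sets had differences of -1.78, -2.98 and -3.28, and the last was -1.71 without B3. Btg1, an antiproliferative factor, showed the same split among P8 cells, with 10406 in A1 and 7010 in B4, and 2.7 in A2 and 93.0 in B3, and its difference of -2.52 was -1.09 without A2.

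Gsto1, a glutathione transferase of the omega class, was at most 404 in P8 cells, and 8 of 9 P5 cells had 1817 to 19785, D3 being the exception at 8.0. Its second probe set gave -4.11 beside -4.15. Snhg5, the host transcript of small nucleolar RNAs, was at 3.4 to 45.6 in all P8 cells and at 3696 to 10617 in 8 of 9 P5 cells, E2 (8.9) being the exception. Fundc2 (-3.65) is a protein of the outer mitochondrial membrane and Mrpl24 (-3.30) one of the mitochondrial ribosome. Cers5 (-3.10) makes ceramides, Sh3glb1 (-2.73) is an endophilin of autophagy, Mbtps1 (-2.68) is the site-1 protease of the Golgi and Dnajb11 (-2.54) a chaperone of the endoplasmic reticulum. Phax (-2.36) exports small nuclear RNAs, Mark1 (-2.27) is a kinase of microtubule-binding proteins, and Niban3 stood at -2.56. Of 12 further detected probe sets of the lower genes, 7 were lower in both reporters. Sh3glb1 was -1.52 without B4 and Mark1 -1.07 without A1. With the median over probe sets Fundc2 went to 0.08, Snhg5 to -0.04, Nr2c2 to -0.001, Rprd1a to -0.48 and Mbtps1 to -0.57.

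**Figure D3:**
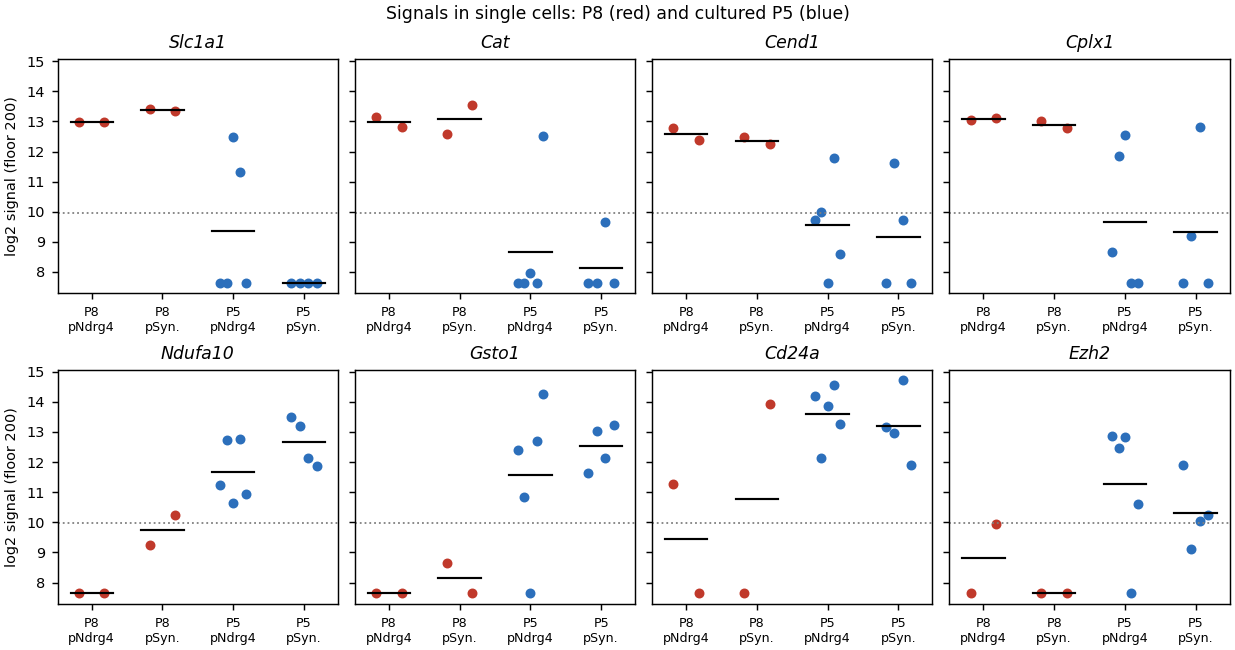
Log2 signal of 8 genes in single cells by age and reporter, P8 in red and P5 in blue, with a bar at each group's mean and a dotted line at the detection level of 1000. Slc1a1, Cat and Cend1 have all P8 cells on top and Ndufa10 has all P8 cells below, whereas Cplx1, Gsto1, Cd24a and Ezh2 overlap between ages.

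Synapse genes were taken as lists, chosen with earlier results of these data known. Of 34 genes of synaptic vesicles and release that could be compared, 5 were higher in both reporters and 0 lower, beside 8.47% and 5.06% over all genes. The 5 were Cplx1, Bsn, Syngr3, Sv2a and Sh3gl2. The list's median difference was 0.39, against 0.11 over all genes, and was 0.11 without the detection filter. Between 22 and 28 of its members were detected per P8 cell and between 18 and 26 per P5 cell, so cells of both ages overlapped.

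Bsn, the active zone scaffold Bassoon, had 4039, 5303, 7378 and 5748 in A1, A2, B3 and B4, and 5 of 9 P5 cells detected it, up to 6467 (E2). Its difference was 2.50. Sv2a, a vesicle glycoprotein, had 8773 to 15733 at P8, against 3847 to 13262 in 7 P5 cells, D3 having 137 and E4 294 (difference 1.61). Syngr3, of the synaptogyrin family, differed by 2.00, and Sh3gl2, the endophilin of vesicle uptake, by 1.24. All 4 P8 cells detected each of these genes, while 3 to 7 of the P5 cells did. Another probe set of Syngr3, detected in 4 cells, gave 1.15 in pNdrg4 and -0.89 in pSynapsin cells. One of Bsn, detected in 2 cells, gave 1.68 and -1.04. For both genes the reporters thus went opposite ways there, whereas one of Sh3gl2, detected in 7 cells, gave 2.259 and 1.395. Other members had smaller or opposite differences, with Snap25 at 0.26, Vamp2 at -0.10 and Syt1 at 0.69, and Rab3a was at -1.18. Sv2a was 1.04 without E4 and Sh3gl2 0.82 without C1. Of 15 genes of synaptic adhesion and postsynaptic scaffolds, the membrane-associated guanylate kinase genes Dlg2 (1.15) and Dlg3 (1.80) were higher in both reporters. That is 13.3%, beside 8.47% over all genes. Dlg2 turned to -0.87 with the median over probe sets and to -0.08 with group medians. Dlg2 was 0.45 without E2 and Dlg3 0.75 without B3, and the list's median of 0.33 was -0.05 without A2.

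Among receptors, the AMPA-type glutamate receptor subunit Gria3 had 33435 (A1), 5484 (A2), 10574 (B3) and 19981 (B4). In P5 cells it ran from 10.2 to 19399 with a median of 3468, and its difference was 2.52. Gria4 had a difference of 1.76, whereas Gria2, the subunit that blocks calcium entry, had one of -0.90. Of 8 glutamate receptor genes compared these 2 were higher in both reporters and 0 lower, or 25.0% and 0.0%, beside 8.47% and 5.06% over all genes. The list's median of -0.32 ran from -0.99 without B3 to 0.62 without B4. Glra3, a glycine receptor subunit, was the 1 of 9 GABA-A and glycine receptor genes past the fold, or 11.1% beside the same 8.47%. It had 233 (A1), 9081 (A2), 26028 (B3) and 4133 (B4) and a difference of 2.82 (1.50 without A2). In P5 cells Glra3 was detected in 3 of 9, E3 (10325), E4 (2774) and C6 (1324). Glra2, the embryonic glycine receptor subunit, stood at -0.02, Gabra2 at -1.08, and Glra1 and Grin2a were detected in 0 of 13 cells.

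The chloride transporter pair that sets the sign of GABA responses did not pass the fold in both reporters. Slc12a5, the exporter KCC2, was detected in all 13 cells with an averaged difference of 0.19. Slc12a2, the importer NKCC1, was at 16661 in A1 and 20031 in B4 but at 258 in A2 and 21.2 in B3, and 3 of 9 P5 cells detected it, E2 most strongly (16067).

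Of 17 potassium channel genes compared, 3 were higher in both reporters and 0 lower, or 17.6%, beside 8.47% over all genes. The median of 0.83 was 0.24 without A2. Kcnc1, the fast Kv3 channel subunit, had 1668, 2590, 1478 and 2279 in A1, A2, B3 and B4. At P5 it was detected in C6 (2015) alone, the other 8 cells running from 27.4 to 978, and the difference was 2.29, or 0.27 with the median over probe sets. Kcnab2, an accessory subunit, had 2.06 and Kcnh2, an ERG channel, 1.44, both led by A1 and B4. Kcnc1 was thus the member detected in every P8 cell and in 1 P5 cell. Of 25 sodium, calcium and related channel genes, Cacna1h (1.22) and Cacng5 (1.90) were higher and Scn3a, a sodium channel of the embryonic brain, lower (-1.93). These shares of 8.0% and 4.0% are near the 8.47% and 5.06% over all genes. Cacna1h and Cacng5 were high in A1 and B4 only among P8 cells. Without B4 Kcnab2 was 1.05, Cacna1h 0.19 and Cacng5 0.59, and without A1 Kcnh2 was 0.34.

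Of 19 axon guidance ligands and receptors compared, 3 were lower in both reporters (Robo3, Nrp1 and Efnb2), or 15.8% beside 5.06% over all genes, and 14 had a difference below 0. Dcc, the netrin receptor, was higher, or 5.26% beside 8.47%, and its difference of 1.59 was 0.29 without A1. The median was -0.71, against 0.11 over all genes, and ran from -0.87 to -0.38 when cells were left out in turn. It was -0.16 without cells A1, B4 and E2 together and -0.004 without the detection filter. P8 cells detected 3 (A1), 6 (A2), 6 (B3) and 6 (B4) of these genes, and P5 cells 5 to 10.

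Robo3, a divergent receptor of the Slit system, was at 45.8 to 118 in P8 cells. At P5 it reached 33992 in C1, 19196 in D5, 18196 in D3, 6603 in E4 and 1399 in E1, and it was at most 168 in the other 4. Thus 0 of 4 P8 cells and 5 of 9 P5 cells detected it, and the difference was -3.03. Nrp1, a receptor of semaphorins and VEGF, was at 7.2 to 70.1 in P8 cells and was detected in 4 of 4 P5 pSynapsin cells (1822 to 5249) and in 1 of 5 P5 pNdrg4 cells, D6 at 12541. Efnb2, a transmembrane ephrin, was detected in 0 of 4 P8 and 5 of 9 P5 cells. Other probe sets of Nrp1, detected in 5 and 4 cells, gave averaged differences of -0.93 and -0.23, and another in 1 cell 0.69. Another Efnb2 probe set, detected in 4 cells, gave -0.055, with -1.235 in pNdrg4 and 1.125 in pSynapsin cells. Of 30 cadherins and recognition molecules, Pcdh7 and Pcdh17 were higher in both reporters, and N-cadherin (Cdh2) and the teneurin Tenm3 lower, which is 6.67% each way and near the 8.47% and 5.06% over all genes. Pcdh17 was 0.65 without A1, Pcdh7 0.83 without A2 and Tenm3 -0.51 without C6.

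Genes of growing and immature neurons were divided, with 2 of 31 higher, 2 lower and a median of -0.09. That is 6.45% each way, near the 8.47% and 5.06% over all genes. Sox11, a transcription factor of young neurons, had 6699, 8452, 5674 and 3705 in A1, A2, B3 and B4, so all P8 cells detected it, against 4 of 9 P5 cells. Its difference was 2.36, and its other probe sets gave 2.44, 0.76, 0.47, 0.31 and -0.96, the last lower at P8 in both reporters. Stmn2, a tubulin regulator of growth cones, had 4812 (A1), 15994 (A2), 11951 (B3) and 8.2 (B4), with 2 of 9 P5 cells detecting it, and its difference of 2.85 was 1.38 without B3. Tmsb10, an actin-binding peptide, was at 3730 in A1 and 3877 in B4 but at 25182 in A2 and 31307 in B3, inside the P5 range of 15075 to 65336, and its difference of -1.31 was -0.55 without B4. Ank3, the ankyrin of the axon initial segment, had 6285 to 8928 in P8 cells and was detected in 5 of 9 P5 cells, a difference of 2.72. Of the 11 neurofilament and mature cytoskeleton genes it was the 1 higher, and Mbp, myelin basic protein, the 1 lower (-2.22). That is 9.09% each way, beside 8.47% and 5.06% over all genes. Mbp had 1266 in B3 and at most 61.3 in the other P8 cells, and 5 of 9 P5 cells detected it. All other Mbp probe sets were detected in 0 of 13 cells, so its result rests on 1 probe set.

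**Figure D4:**
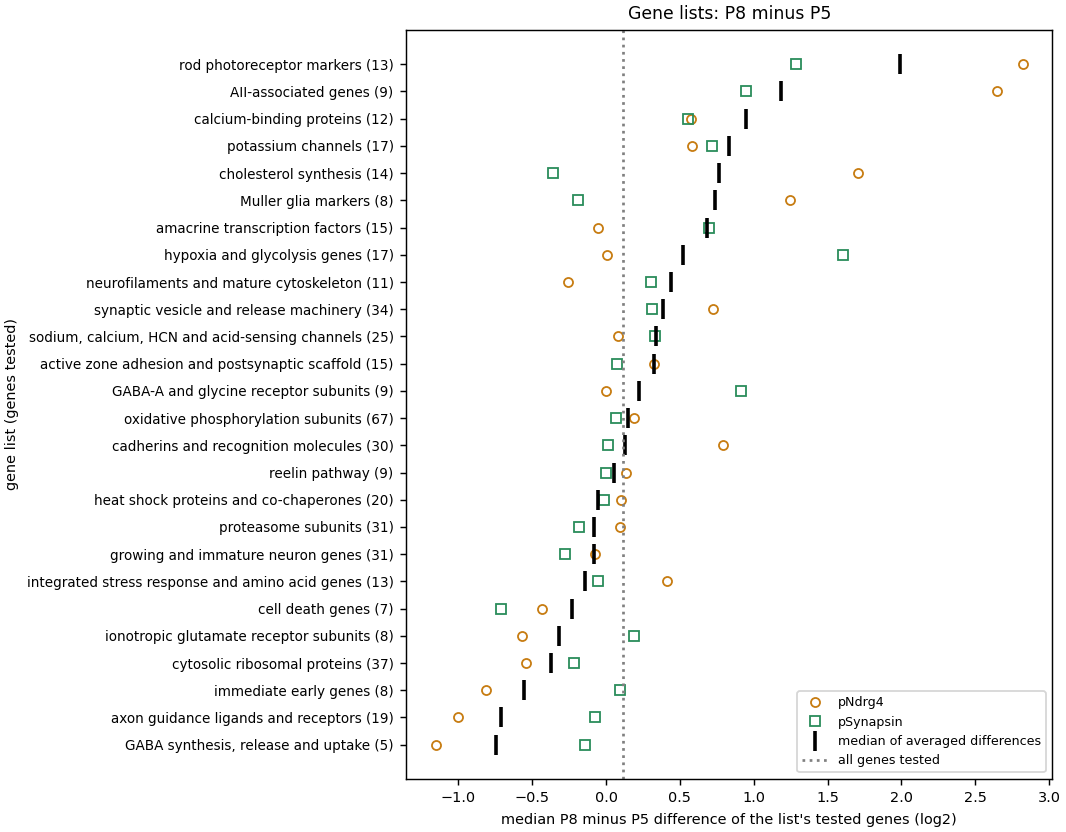
Median P8 minus P5 difference (log2) of each gene list with at least 5 compared genes, in pNdrg4 cells (circles), in pSynapsin cells (squares) and of the averaged differences (bars), with the number of genes in brackets and the median of all genes as a dotted line. Rod genes (1.99) and AII-associated genes (1.19) lie highest, and GABA genes (-0.75, but 0.43 without B4) and axon guidance genes (-0.71) lowest.

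Of 37 cytosolic ribosomal protein genes 35 had a difference below 0 and 2 above, with a median of -0.37 (-0.54 in pNdrg4, -0.22 in pSynapsin). The median of all genes compared was 0.11, and the share of them below 0 is not given here. Of the 37 genes 0 passed the fold in both reporters, beside 8.47% higher and 5.06% lower over all genes. With quantile normalization, which put the median of all genes at 0.05, 33 of 38 lay below 0 and the median was -0.22. The median log2 signal of these genes was 13.70 (A1), 13.70 (A2), 14.22 (B3) and 14.55 (B4) at P8. In P5 pNdrg4 cells it ran from 13.94 to 14.59 and in P5 pSynapsin cells from 14.45 to 14.87, so B4 lay inside the P5 range of its reporter and the other 3 P8 cells below theirs. The widest members were Rpl22 (-1.95), Rps2 (-1.56) and Rps28 (-1.21), Rpl22 being -1.22 without A1 and Rps2 -0.54 without B3.

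Oxidative phosphorylation genes had a median of 0.15, with 3 of 67 higher (Ndufs8, Uqcrc1 and Cox5a) and Ndufa10 lower, both shares below those over all genes. Of 17 hypoxia and glycolysis genes compared, the muscle-type phosphofructokinase Pfkm (2.28) and Aldoc (2.02) were higher, or 11.8% beside 8.47% over all genes. The list's median was 0.005 in pNdrg4 and 1.61 in pSynapsin cells. Aldoc, an aldolase of brain and retina, was detected in A2 (3550) and B3 (4969) alone of the 13 cells, and its difference was 0.86 without B3. In cholesterol synthesis Mvd (2.86), the decarboxylase of the mevalonate pathway, and Srebf2 (2.10), its master regulator, were higher, of 14, or 14.3%. Mvd was detected in 3 of 4 P8 cells and 0 of 9 P5 cells, and was 1.84 without A2. Cox5a was 1.08 without E4.

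Stress and activity lists gave little. Of the 20 heat shock, 8 immediate early and 7 cell death genes in these lists 0 passed the fold in both reporters. Their medians were -0.06, -0.56 and -0.23. The chaperone genes Hspa12a and Dnajb11 described above are not on the heat shock list. Of 13 genes of the integrated stress response Psat1 was higher and Shmt2 and Xbp1 lower, or 7.69% and 15.4%. Of 31 proteasome genes Psma4 and Psmd7 were higher and Psmd12 lower, or 6.45% and 3.23%. Over all genes these shares were 8.47% and 5.06%. Shmt2 was -0.56 without A1, Psma4 0.84 without E2 and Psmd12 -0.76 without B4.

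Genes of rods and of the AII type were high in some cells of both ages, and their part in the results above was not tested beyond leaving cells out. Of 13 rod photoreceptor genes compared 6 were higher in both reporters (Gnat1, Pdc, Pde6b, Pde6g, Rcvrn and Abca4) and 0 lower, and their median difference was 1.99. Cells A1, A2, B3 and B4 detected 9, 11, 4 and 12 of them, and P5 cells 2 to 11, E2 having 11 and E1 having 7. The summed signal of all rod genes measured was 25744 to 150611 in P8 cells and 16093 to 105638 in P5 cells, and overlapped. These 6 are 46.2%, beside 8.47% over all genes. Without B4 the median was 0.33, Abca4 was 0.58, Gnat1 1.10, Pde6b 1.12 and Pde6g 1.34, and without A2 Pdc was 1.51. Rcvrn, the calcium sensor recoverin, had 7261, 8333, 4717 and 2061 in A1, A2, B3 and B4, against 7447 in E2 and at most 985 in the other 8 P5 cells. Gnat1, the rod transducin, was detected in A2 (4278) and B4 (9656) alone. The rod genes Gngt1, Pde6a, Prph2 and Rdh12 were detected in 0 of 13 cells, and so were all microglia genes. The summed signal of Muller glia genes was 12937 to 57797 in P8 cells and 1016 to 41447 in P5 cells, and of 8 compared Car2 was higher and Glul, glutamine synthetase, lower (-1.30), 12.5% each way beside 8.47% and 5.06% over all genes. Glul was -0.052 without B3. The cone transducin subunit gene Gnb3, the 1 cone gene compared, was higher (1.93, and 1.04 without A2). Of 3 proliferation genes compared Pcna was lower (-1.41, and -0.32 without A1), or 33.3% beside 5.06% over all genes. Lists so short describe single genes.

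Genes of amacrine identity and transmitter use had few shared differences. Of 15 amacrine transcription factor genes compared, Neurod4 was higher and Nhlh2 and Ebf1 (-1.62) lower, with a median of 0.68 (-0.087 without A1). The shares were 6.67% and 13.3%, beside 8.47% and 5.06% over all genes. Ebf1 was -0.87 and Nhlh2 -0.39 without A1, and Neurod4 -0.22 without B4. Of 5 genes of GABA synthesis, release and uptake 0 passed the fold in both reporters, with a median of -0.75 that was 0.43 without B4. Slc6a5, the neuronal glycine transporter GlyT2, was higher by 1.63 on the log2 scale, and by 0.93 without B4. Of 12 calcium-binding protein genes Rcvrn was higher and Cabp1, a calmodulin relative, lower (-1.34, and -0.36 without B4), or 8.33% each way. Of 9 genes of the reelin pathway 0 passed the fold, with a median of 0.05 (-0.52 without B3).

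Of 9 AII-associated genes compared 3 were higher in both reporters, Gjd2, Nfia and Car2, and 0 lower. That is 33.3%, beside 8.47% over all genes, and the median of 1.19 ran from 0.79 without B4 to 2.47 without B3. Gjd2 was 0.92 without A1, Nfia 0.79 and Car2 1.24 without B4. Gjd2, the gap junction protein connexin 36 of the AII cell, had 34051 in A1 and 22700 in B4, but 31.1 in A2 and 937 in B3. In P5 cells it had 20698 in E2 and 6846 in C6 and at most 103 in the other 7. Nfia, a nuclear factor of the glycinergic AII lineage, had 9585 in A1 and 21331 in B4, 267 in A2 and 41.0 in B3, and 10303 in E2 alone of the P5 cells. The higher means of this list were thus carried by 2 of 4 P8 cells, with 8 members detected in A1 and 7 in B4, against 4 in A2 and 1 in B3, and 7 in P5 cell E2.

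The P8 cells also differed from each other in other genes along the same line. Nhlh2, a basic helix-loop-helix factor of young neurons, was at 10700 in A2 and 8109 in B3, 3.2 in A1 and 12.9 in B4, and at 1291 or more in 8 of 9 P5 cells, E2 (48.1) being the exception. Neurod4, another factor of that family, was at 9481 in A1 and 12785 in B4, 117 in A2 and 38.5 in B3, and was detected in D6 (16803) and E2 (11094) at P5. Pcdh17 and Cacng5 followed A1 and B4, and Gal (1.86, and 0.88 without A2), Aldoc and Pcdh7 followed A2 and B3. Of the 2 P8 cells of each reporter 1 was of either kind.

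Cells A1, B4 and E2 were therefore left out together, a choice made after these values were seen. That left A2 as the only P8 pNdrg4 cell and B3 as the only P8 pSynapsin cell. Each reporter's difference thus rests on that cell alone at P8, and the counts hold no test. The 20 higher and 20 lower genes were chosen for wide differences in a set of cells that held A2 and B3. How many of them stayed past the fold describes that choice. Of the 20 higher genes 17 and of the 20 lower genes 16 were then still past the fold in both reporters, and 829 genes were higher and 479 lower in all. The difference of Slc1a1, Cat, Cend1 and Cplx1 stayed above 1 and that of Ndufa10, Gsto1 and Phf3 below -1. Nhlh2 turned to 0.32, Tmsb10 to 0.09, Pcna to 0.40, Neurod4 to -0.98, Cacng5 to -0.75, Pcdh17 to -0.20, Kcnh2 to -0.17 and Cacna1h to -0.09. The rod median was 0.47 and the AII median 0.29.

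**Figure D5:**
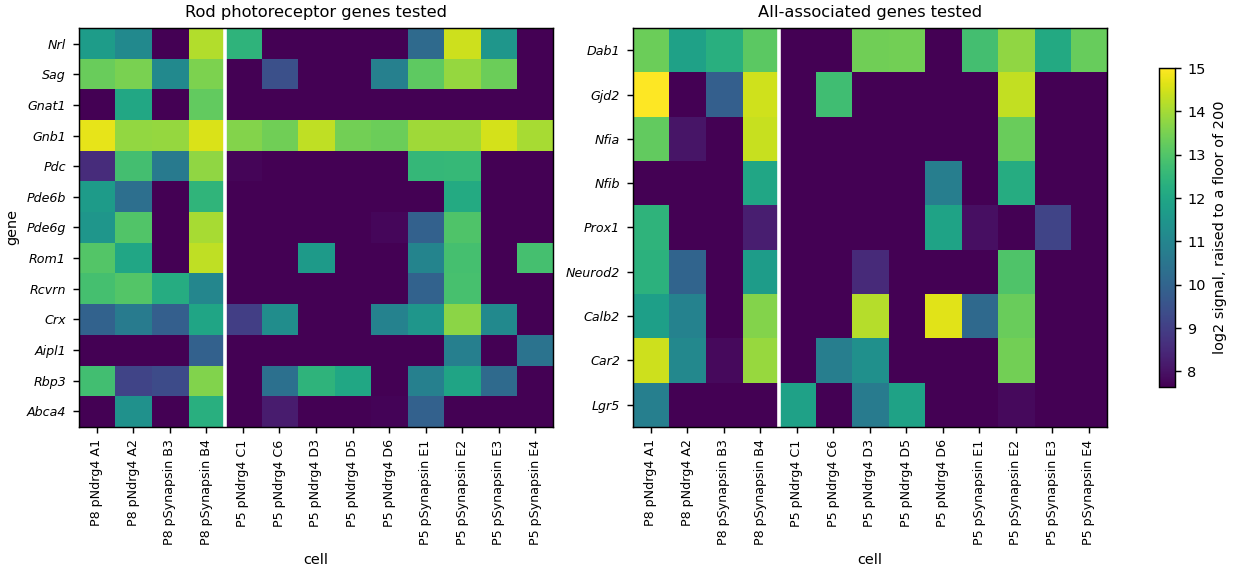
Log2 signals, raised to the floor of 200, of the rod photoreceptor genes (left) and AII-associated genes (right) compared, with 4 P8 cells left of the white line and 9 P5 cells right of it. P8 cells A1 and B4 and P5 cell E2 share Gjd2, Nfia and Neurod2, and rod genes are bright in A1, A2, B4 and E2.

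For some genes the reporters gave opposite differences. Rph3a, the Rab3 effector rabphilin, was at 49.4 and 65.2 in P8 pNdrg4 cells, against 3471 to 10928 in the 5 P5 pNdrg4 cells. In pSynapsin cells it was at 5049 and 6306 at P8, against at most 68.7 in the 4 P5 cells. The ages were thus apart without overlap in both reporters but in opposite directions, with differences of -5.23 and 4.82, which left -0.21 on average. Srsf12, a splicing regulator, differed by -4.41 and 3.35, Rfc4, a clamp loader subunit, by -3.07 and 3.90, Polr1c by -2.91 and 3.14 and Cotl1 by -3.46 and 2.85 (pNdrg4 first).

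The converse was seen for Ubr4, a ubiquitin ligase, with differences of 3.22 in pNdrg4 and -4.49 in pSynapsin cells. It was followed by Nmral1, with 3.03 and -4.16. Ttyh1, a chloride channel family member, had 3.10 and -3.56, Dicer1, the enzyme that cuts microRNA precursors, 3.43 and -3.07, and Usp5, a deubiquitinase, 3.06 and -3.15. Another probe set of Ttyh1, detected in 3 cells, gave -0.29 and 2.16, and another of Dicer1, detected in 2 cells, -0.08 and 0.95. Both thus went the other way in both reporters. For Nmral1 a further probe set gave 2.74 and -3.08, and another -1.17 and 0.66. These 10 genes were picked as the widest opposite ones, so their size describes the choice, and the difference between reporters was not tested. Ubr4 was 2.13 in pNdrg4 cells without A2, and Usp5 -1.53 in pSynapsin cells without B4.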

How the data were processed

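Expression was measured in 26 single cells, 1 Affymetrix Mouse 430 2.0 array each, of which 13 were compared here. Per the labels' protocols, the RNA of each hand-picked cell was primed with oligo dT, copied to cDNA, put through 35 cycles of PCR and labelled with biotin. This can lose rare transcripts, so a low signal is no proof of absence. The deposited values are linear signal intensities for each probe set, which the authors computed by MAS5 according to the submitters' processing notes. Its version is not given in these sources. Their mean trimmed by 2% at each end is 500 on every array, and they were not scaled again. The table has no detection calls, and no scan dates were used. The 26 columns were all distinct.

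Of 45101 probe sets 34958 had 1 gene, 932 several and 9211 none. Each gene was represented by its probe set of highest mean (log2, floored) in the 26 cells. Computation used Python 3.11.15 with pandas 2.3.3 and numpy 2.4.6, and scipy 1.17.1. Plots used matplotlib 3.10.9. The code was tested on simulated data. Group means, differences and detection counts are descriptions, since each group counted as 1 sample, and the SDs are over cells. The members and the 39 gene lists (906 genes written, 800 measured, 496 compared) were chosen with earlier results of these data known, so no list is independent support.

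Named genes were the 20 highest and 20 lowest by the smaller reporter difference (detected in at least 3 of 4 P8 cells, or in at least 3 P5 cells of each reporter), all genes without overlap, the 5 widest opposite genes each way, and list members past the fold, or else the 3 widest of a list. Clone-type symbols, 1 among the higher genes, were left out. A few other list genes, among them Snap25, Vamp2, Syt1, Rab3a and Gria2, were named after their values were seen. Alternatives varied the floor, the scaling, the probe set rule, the averaging, the detection filter and the cells used.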

Additional observations from a re-analysis of the deposited data

Results flagged for a closer look

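Within each P5 group, 1 cell often stood apart from the others in the genes named above by Dixon's gap criterion. Of 82 groups of values examined 27 showed such a cell, 22 for a highest and 5 for a lowest cell, which is a description. Chance gives about 1 in 20 groups for values without ties, a rate that cannot be read against this count, because these genes were chosen for P5 cells lying low or high and many values are tied at the floor of 200. Values below are log2 signals.

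Among genes higher at P8, P5 pSynapsin cell E2 was the high cell for Rnf152 (14.05), Psat1 (13.94), Hspa12a (13.0), Dgke (12.08), Rgs7 (10.88), Dync1i1 (9.17) and Olfm1 (8.16). Cell E1 was so for Abhd14a (13.46), E3 for Map3k9 (10.08) and Cat (9.65), and E4 for Timm17a (11.24) and Sec16a (10.82). Among P5 pNdrg4 cells, C6 was high for Sec16a (12.2), Hspa12a (11.59), Ttc7b (10.6), Dync1i1 (8.94) and Dgke (8.82). Cell D6 was high for Cat (12.5), Abhd14a (12.41) and Rnf152 (10.94), and C1 for Olfm1 (12.98) and Timm17a (12.03). For genes lower at P8 the low cells were E2 for Snhg5 (7.64), D5 for Fundc2 (7.64), C6 for Phf3 (9.33) and Dnajb11 (9.14), and E3 for Cers5 (8.21).

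For 4 of the 10 widest opposite genes every P8 cell lay beyond every P5 cell in both reporters but in opposite directions. The pNdrg4 difference was 3.1 for Ttyh1, 3.43 for Dicer1, 3.06 for Usp5 and -5.23 for Rph3a. For Ttyh1 and Dicer1 a further detected probe set went the other way in both reporters, as given above. The difference between the reporters was not tested.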

How the results depend on the processing

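Each group counted as 1 sample, so these are values with no test, and a median over genes is named where it moved by more than the SD over cells, or a count by over 1.5 times. Of single genes those past the fold that changed sign are named, and 80 further values of single genes moved by more than that SD, such as Prkag2 (1.69 with the median over probe sets) and Sh3glb1 (-0.31 without A1, B4 and E2). The cause of these moves was not tested. With the floor at 50, 631 genes were lower and the medians of calcium-binding proteins and of sodium, calcium and related channels were 1.27 and 0.71. With the floor at 500, 349 genes were higher and 173 lower, and 4 lower genes did not overlap. With the median over probe sets, 387 were higher and 229 lower, 3 higher and 4 lower did not overlap, the medians were -0.55 for amacrine transcription factors, 0.54 for chloride transporters and -0.028 for sodium, calcium and related channels, and Zeb1 (-0.35), Fundc2 (0.079), Jmjd1c (-0.29), Dlg2 (-0.87), Pcdh7 (-0.11) and Psmd7 (-0.054) changed sign. With group medians the all-gene median was 0.30, calcium-binding proteins 1.46, the mature cytoskeleton 1.06 and Dlg2 -0.075. With the reporter ignored, 1493 were higher and 1072 lower. Without the detection filter the medians were 0.11 for synaptic vesicle genes, -0.004 for axon guidance and 0.0 for sex-linked transcripts. With detection in at least 4 cells the channel median was -0.043. The share of higher genes among those past the fold was 62.6%, 72.2% with group medians and 56.0% with quantile normalization, and 53.9% without A2.

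Leaving out 1 cell at a time gave an all-gene median of -0.022 (without A2) to 0.21, 595 to 715 higher and 377 to 571 lower genes (571 without A2), and 12 to 46 higher and 7 to 15 lower genes without overlap (most without B4 in both). The medians ran from -0.087 to 0.61 for amacrine transcription factors, 0.54 to 2.31 for chloride transporters, -0.071 to 0.41 for heat shock, 0.23 to 1.25 for calcium-binding proteins, -0.99 to 0.61 for glutamate receptors, 0.19 to 1.09 for the mature cytoskeleton, 0.055 to 0.64 for sex-linked transcripts and 0.33 to 3.15 for rod genes. They also ran from -1.16 to 0.43 for GABA genes, 0.24 to 0.92 for potassium channels, 0.79 to 2.47 for AII-associated genes, -0.47 to 0.29 for cadherins, 0.059 to 1.50 for cholesterol synthesis and -0.62 to 0.29 for the integrated stress response. Neurod4 ran from -0.22 (without B4) to 2.78, and was -0.12 without A1.

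Without A1, B4 and E2, chosen after seeing the data, 156 higher and 45 lower genes did not overlap, of fewer cells compared, and the median number of genes detected was 702.5 higher at P8. The medians were 0.33 for chloride transporters, 0.78 for glutamate receptors, 0.14 for immature neuron genes, 1.08 for sodium, calcium and related channels, -0.16 for axon guidance, 0.84 for cadherins, 0.36 for proteasome, 0.35 for heat shock, 0.62 for integrated stress response and 0.47 for rod genes. Neurod4 (-0.98), Nhlh2 (0.32), Tmsb10 (0.093), Kcnh2 (-0.17), Cacna1h (-0.085), Cacng5 (-0.75), Pcdh17 (-0.20) and Pcna (0.40) changed sign. No paired analysis was possible because the replicate numbers only name cells and no test was made. With 4 P8 arrays and 35 cycles of amplification, the loss of single transcripts cannot be told apart from low expression.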
